A study of Megalobrama amblycephala with 2 samples.

Results

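Liver of juvenile blunt snout bream (Megalobrama amblycephala), a farmed freshwater cyprinid, held 98 well-expressed transcript components that stood much lower in fish kept at 35 °C than in fish kept at 25 °C. A component is a group of assembled transcripts with 1 identifier, and 35281 components were listed. Members were chosen by a mean RPKM over both temperatures of at least 10 and below 1000, and by a log2 fold, log2((heat + 1)/(control + 1)), of at most -2. RPKM is a read number scaled to transcript length and to the reads of the library. The same 2 values per component chose the members, so their levels and folds describe the set and test nothing. Of 3486 components in this level class, 2.81% met the limit for lower values and 2.12% the mirrored limit for higher values (74 components).

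The heat group was kept at 35 °C for 72 h and the control group at 25 °C for the same time. Both came from 1 stock acclimated at the control temperature, fasted before transfer to the test tanks, and anaesthetised with tricaine at sampling. Livers of several fish were taken per group; whether each library represents 1 liver or a pool is not stated in the labels. Polyadenylated RNA of whole liver was sequenced as 1 library per temperature, so no value has an error across fish, and temperature cannot be told apart from differences between fish, tanks or libraries.

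The fish liver makes most plasma proteins, packages lipid into lipoproteins, produces bile, stores glycogen and detoxifies foreign compounds, and its hepatocytes devote a large part of their messenger RNA to a small set of secreted proteins. Warming of an ectotherm raises its metabolic rate, and cells under heat stress are known to induce chaperones while they reduce the expression of many other genes. In bulk liver, fewer cells of a type and less RNA per cell cannot be told apart. None of the 98 members could be given a name or role, since the deposited table gives assembly identifiers without gene names. For the same reason the tissue could not be checked against hepatocyte markers.

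In heat, 15 of the 98 members were near silence, below 1 RPKM, and 83 were partly reduced, at 1.01 RPKM or more. In the control library the members ranged from 17.5 to 469.6 RPKM with a median of 51.2 RPKM. In the heat library they ranged from a listed 0 to 91.4 RPKM with a median of 4.67 RPKM. At 25 °C, 29 members reached 100 RPKM, and at 35 °C none did. By rank among all 35281 components, 50 members were within the 1000 most abundant of the control liver and 12 within the 1000 most abundant of the heat liver. All 98 were within the 5000 most abundant at 25 °C, and 40 were at 35 °C. The rule itself sets members high in control and lower in heat, so these falls in number are built in. Of the whole level class, members included, 873 components were within the 1000 most abundant in each library. In that class, 466 components reached 100 RPKM at 25 °C and 430 at 35 °C.

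**Figure D1:**
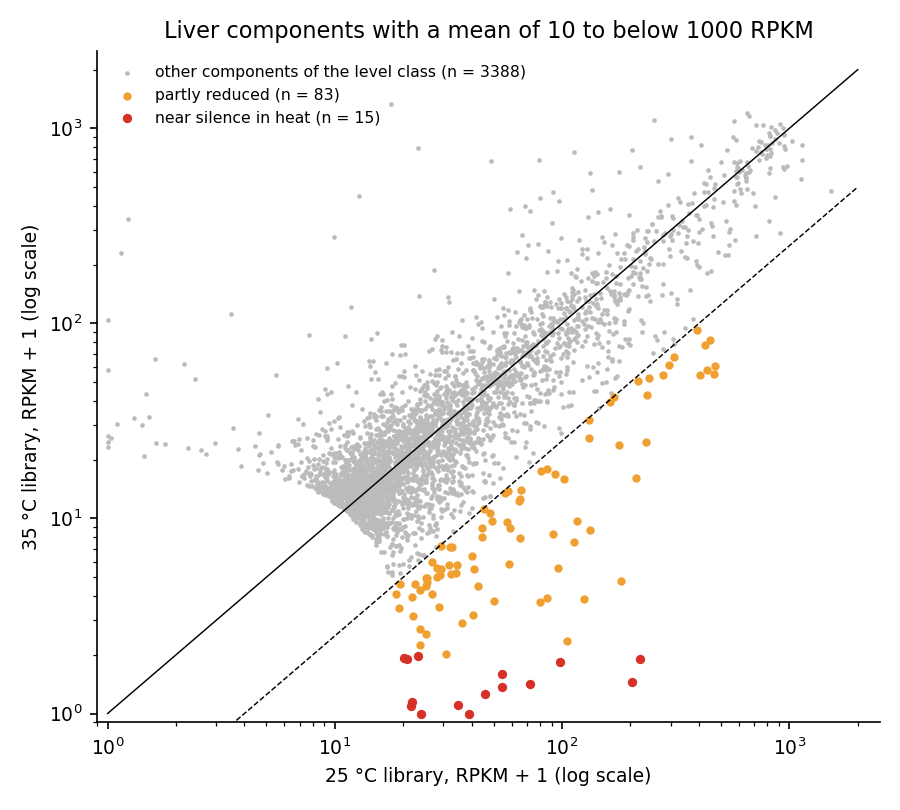
RPKM + 1 in the 25 °C library (x, log scale) against the 35 °C library (y, log scale) for the 3486 components with a mean of 10 to below 1000 RPKM. Each point is a component, the solid line marks equal values and the dashed line the limit of a log2 fold of -2. The 83 partly reduced members (orange) lie below the dashed line and the 15 near-silent members (red) along the bottom, below 1 RPKM in heat.

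The members together held 1.33% of the summed RPKM of the control library and 0.179% of that of the heat library. Their summed level was 7.28 times as high in control. The 83 partly reduced members carried most of this, at 1.21% in control and 0.178% in heat. The near-silent members held 0.125% in control and 0.000904% in heat. The other 3388 components of the level class held 28.7% of the summed RPKM in both libraries. These include the 74 components at the mirrored limit for higher values, which held 0.207% in control and 1.67% in heat. The equal share of the 3388 thus does not mean that each part of them was level.

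Near silence covered components of very different control levels. The component comp5117_c0, the near-silent member with the highest control value, stood at 219.8 RPKM at 25 °C and 0.90 RPKM at 35 °C. It ranked 347th among all components at 25 °C and 29328th at 35 °C, and its control value was 244 times its heat value. The second stood at 202 RPKM at 25 °C and 0.45 RPKM at 35 °C, 450-fold apart, which was the widest ratio among members with a heat value above 0. Both hold a single assembled transcript, and the second ranked 365th at 25 °C and 33506th at 35 °C. The second also shares its assembly cluster with a far more abundant sub-component, at 13123 RPKM at 25 °C and 3478 RPKM at 35 °C. Its wide ratio is therefore that of 1 sub-component and not of the cluster.

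The third near-silent member stood at 97.1 RPKM at 25 °C and 0.83 RPKM at 35 °C. The fourth stood at 71.6 RPKM at 25 °C and 0.42 RPKM at 35 °C. The fifth and the sixth had almost equal control values, at 53.6 and 53.4 RPKM, and stood at 0.59 and 0.36 RPKM in heat. All 4 were thus well above the control median of 37.9 RPKM of the near-silent members and below 1 RPKM in heat. The seventh stood at 44.9 RPKM at 25 °C and 0.26 RPKM at 35 °C, and the ninth at 33.7 RPKM at 25 °C and 0.10 RPKM at 35 °C.

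The eighth and the tenth near-silent members were listed at 0 in heat, with control values of 37.9 and 23.1 RPKM. No single fold is printed for either, because a 0 in an RPKM table may reflect an estimate that failed. Both still enter the counts and medians of the log2 folds with the pseudocount. The 5 members lowest in control lay between 19.1 and 22.3 RPKM there. Of these, 2 were at 0.09 and 0.14 RPKM in heat, and 3 stood between 0.90 and 0.98 RPKM, just below the 1 RPKM limit. Near silence therefore held a group far below the limit as well as members close to it, and 9 of the 15 were below 0.5 RPKM.

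Values below 1 RPKM were common in the heat library as a whole, at 20.4% of all components, against 22.6% in control. Within the level class they were rare. In heat, 0.43% of the 3486 components were below 1 RPKM, all of them members, which the rule makes certain, and in control 0.488% were, 17 components in number. Near-silent members need about 19 to 20 RPKM in control to reach the minimum mean. A further 10 components stood at 10 to 19.6 RPKM in control and below 1 RPKM in heat, and missed the set through that minimum alone.

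The partly reduced members stood between 1.01 and 91.4 RPKM in heat, with a median of 6.20 RPKM. The component comp17011_c0, the highest of all members in control, stood at 469.6 RPKM at 25 °C and 59.4 RPKM at 35 °C, 7.91-fold apart, and ranked 221st at 25 °C and 832nd at 35 °C. The second stood at 467 RPKM at 25 °C and 53.8 RPKM at 35 °C. The third stood at 444 RPKM at 25 °C and 81.6 RPKM at 35 °C. These 3 were close in control and spread over a wider relative range in heat.

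The fourth to the sixth partly reduced members had control values of 435, 426 and 405 RPKM and heat values of 56.4, 76.9 and 53.3 RPKM, in that order. The seventh was the member with the highest heat value, at 392 RPKM at 25 °C and 91.4 RPKM at 35 °C, 4.29-fold apart. The eighth, the ninth and the tenth stood at 309, 295 and 278 RPKM at 25 °C and at 66.4, 60.5 and 53.6 RPKM at 35 °C. All 10 thus remained above 50 RPKM in heat, with control values 4.29 to 8.69 times as high, and all stayed within the 1000 most abundant components at 35 °C. Only 1 other member, at 239 RPKM at 25 °C and 51.7 RPKM at 35 °C, was above 50 RPKM at 35 °C.

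**Figure D2:**
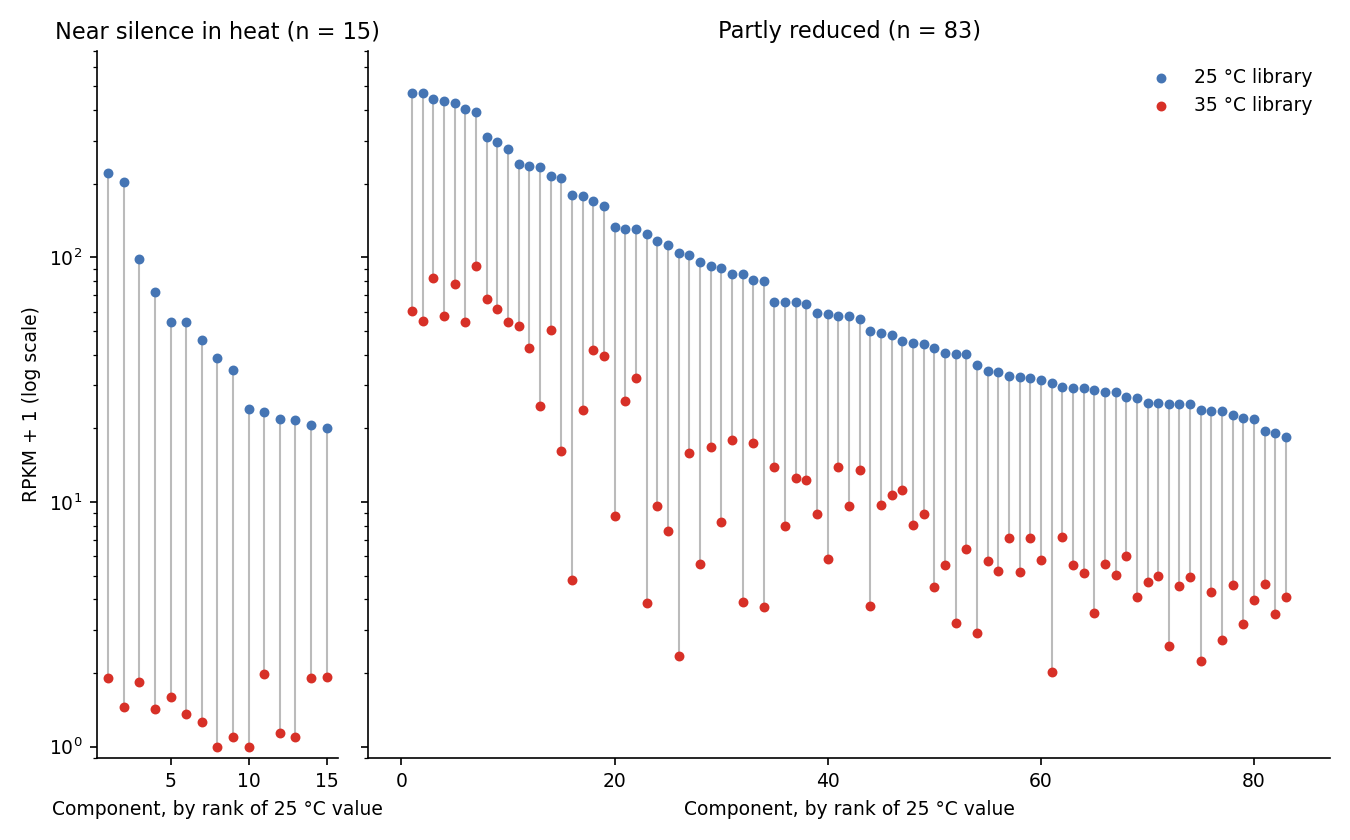
RPKM + 1 (log scale) of each member in the 25 °C library (blue) and the 35 °C library (red), joined by a line, for the 15 near-silent members (left) and the 83 partly reduced members (right), each ordered by its 25 °C value. The first 10 partly reduced members stay above 50 RPKM in heat, while single members of lower rank reach values close to 1 RPKM.

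Below these leading members, a high control value did not go with a high heat value in every case. Picked out after their values were seen, 3 partly reduced members stood above 100 RPKM in control and below 5 RPKM in heat. One of them stood at 179.9 RPKM at 25 °C and 3.79 RPKM at 35 °C, 47.5-fold apart. Another stood at 124 RPKM at 25 °C and 2.85 RPKM at 35 °C, and the last at 104 RPKM at 25 °C and 1.35 RPKM at 35 °C, 76.8-fold apart. This last member lies nearer to the near-silent members than to the leading partly reduced ones, and its ratio exceeds that of some near-silent members.

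The size of the fold varied across the set more than the rule required. On the log2 scale with a pseudocount of 1 RPKM, 59 members lay between -2 and -3, 21 between -3 and -4, 7 between -4 and -5, and 11 at -5 or beyond. The 15 near-silent members accounted for 8 of these last 11, and partly reduced members for 3. The median log2 fold was -2.67 for all members, -5.10 for the near-silent and -2.47 for the partly reduced. For the other 3388 components of the level class the quartiles were -0.39 and 0.43, with a median of 0.02. The pseudocount shortens the folds of near-silent members most: without it, the median log2 ratio of the 13 near-silent members above 0 in heat was -7.21, and that of the partly reduced was -2.77.

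**Figure D3:**
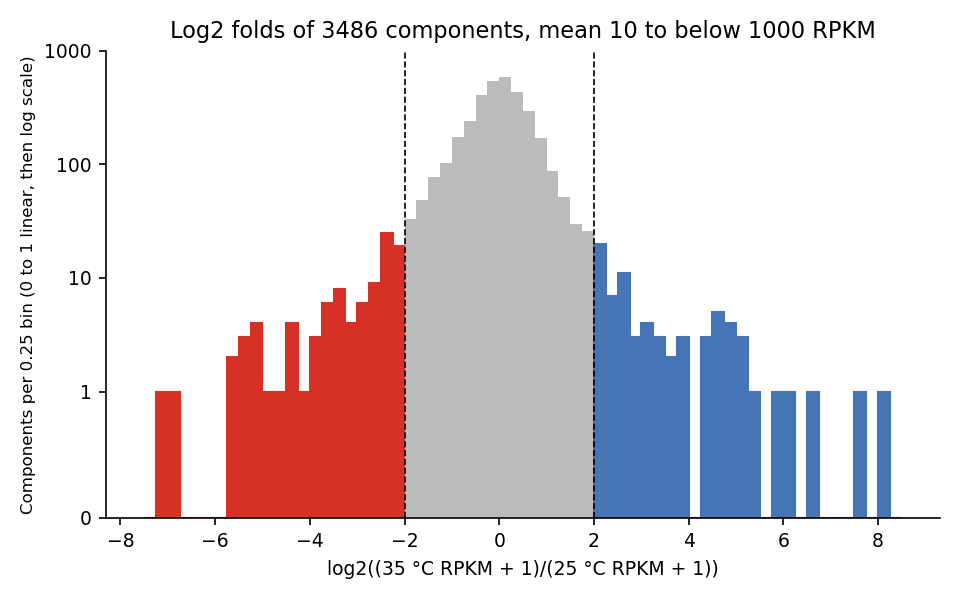
Number of components (y, linear from 0 to 1 and log scale above) per 0.25 step of the log2 fold of 35 °C over 25 °C with a pseudocount of 1 RPKM (x), for the 3486 components of the level class. Dashed lines mark -2 and 2; the 98 members (red) thin out towards -7.13 and the 74 components at the mirrored limit (blue) towards 8.12.

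By control level, the members at 60 to below 120 RPKM had the lowest median fold. There the median log2 fold of 17 members was -3.45. It was -2.48 for 29 members below 30 RPKM, -2.66 for 27 members at 30 to below 60 RPKM, and -2.47 for 25 members at 120 RPKM or more. In the same order from the lowest control level, 6, 5, 2 and 2 members were near silence. The partly reduced members alone gave medians of -2.46, -2.58, -3.04 and -2.46. Both the level and the fold were used by the rule, and the pseudocount limits how low the fold of a member with a low control value can be, so these medians describe the set alone.

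The share of components in the set was larger at higher mean levels. At a mean of 10 to below 20 RPKM, 38 of 1620 components were members (2.35%). At 20 to below 50 RPKM, 29 of 1016 were (2.85%), at 50 to below 100 RPKM 12 of 382 (3.14%), and at 100 to below 1000 RPKM 19 of 468 (4.06%). The mirrored limit was met by 1.73%, 1.97%, 1.83% and 4.06% of the same classes. The pseudocount shortens folds of low components, so shares of different levels are not on one footing. No member had a mean above 264.5 RPKM, although the rule allows up to 1000 RPKM. At 1000 RPKM or more, 1 of 127 components (0.787%) passed the same fold limit.

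Just inside the fold limit, 3 members stood at 40.9, 10.2 and 6.20 RPKM in heat and at 168, 44.5 and 28.4 RPKM in control. Just outside it, 3 components stood at 10.4, 10.3 and 77.2 RPKM in heat and at 44.4, 43.9 and 310.6 RPKM in control. The log2 folds of the first were -2.02, -2.02 and -2.03 and those of the second lay just above -2, up to -1.99, so the limit passes through a continuous range. At the minimum mean of 10 RPKM, the nearest members had means of 10.03, 10.3 and 10.3 RPKM and the nearest components outside 9.86, 9.70 and 9.69 RPKM. At the limit of near silence, members stood at 0.90, 0.92 and 0.98 RPKM inside and at 1.01, 1.24 and 1.35 RPKM outside, with no gap between both groups.

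The number of assembled transcripts per component was not used in choosing the members. A single transcript was held by 57 members (58.2%), 2 to 4 transcripts by 30 (30.6%) and 5 or more by 11 (11.2%). Of the other 3388 components of the class, 57.2%, 24.8% and 18.1% fell into these groups. For the 74 components at the mirrored limit for higher values, the shares were 71.6%, 16.2% and 12.2%. A low share with 5 or more transcripts was thus not particular to the members. Among the near-silent members 12 of 15 held 1 transcript and the other 3 held 2. Of the 83 partly reduced members 45 (54.2%) held 1 transcript, and the highest number was 32. The median was 1 transcript in both groups, and a maximum depends on the size of the group. That most transcript-rich member stood at 213.9 RPKM at 25 °C and 49.5 RPKM at 35 °C. These are counts of components, which are not replicates, and no test was made.

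The 98 members fell into 93 assembly clusters, which are components with the same leading number in the identifier. In 80 of these clusters the member was the only component listed. The other 13 clusters held 18 members (18.4% of the set) and 19 components outside it. Of the other components of the level class, 18.6% shared a cluster number with another component. The 74 components at the mirrored limit for higher values fell into 71 clusters, so a shared cluster was not particular to the members. Sub-components of a cluster can be pieces of 1 transcript or related transcripts, and which of these holds here was not tested.

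In 4 clusters more than 1 sub-component belonged to the set, 9 members in all, each of them partly reduced, as were 83 of all 98. In one, 3 members stood at 63.7, 43.4 and 33.0 RPKM at 25 °C and at 11.3, 7.91 and 4.23 RPKM at 35 °C, with log2 folds from -2.70 to -2.32. In another, 2 members stood at 79.8 and 47.2 RPKM at 25 °C and at 16.4 and 9.72 RPKM at 35 °C, with ratios of 4.85 and 4.86. In one more, 2 members stood at 31.6 and 28.1 RPKM at 25 °C and at 4.17 and 4.13 RPKM at 35 °C. Its remaining sub-component, at 14.2 RPKM at 25 °C and 1.55 RPKM at 35 °C, had a log2 fold of -2.57 and missed the set through its mean level. The sub-components of these 3 clusters differed by at most 0.38 in log2 fold within a cluster.

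The fourth such cluster was less even. Its members stood at 179.9 and 95.1 RPKM at 25 °C and at 3.79 and 4.58 RPKM at 35 °C, so the one higher in control was the lower in heat. Their log2 folds of -5.24 and -4.11 differed by 1.13.

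In the remaining 9 clusters, the member stood beside sub-components that had not passed the limit of -2. For sub-components within the level class, the choice of the set keeps the fold above this limit. Others had a mean outside the level class, which kept them out of the set whatever their fold. Of the 19 sub-components outside the set, the one just described included, 14 had a log2 fold with the pseudocount between -1 and 1, 5 had one of at most -1 and 1 of these one of at most -2, and their median was -0.59. Over the 29462 components averaging 1 RPKM or more, 6.1% had a log2 fold of at most -1 and 0.879% one of at most -2, with a median of 0.05. Lower RPKM in heat was found for 15 of the 19 (78.9%), against 46.2% of all components averaging 1 RPKM or more. The 19 come from 10 clusters, and sub-components of a cluster are not independent. Of the 19, 12 had a mean of at least 10 RPKM, so the 2 shares are not at like levels. The difference was not tested. In 5 clusters every sub-component outside the set had a log2 fold above -1.

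The 3 clusters with the widest span of log2 folds each held an abundant sub-component. The near-silent member at 202 RPKM at 25 °C stood at 0.45 RPKM at 35 °C. An abundant sub-component of its cluster stood at 13123 RPKM at 25 °C and 3478 RPKM at 35 °C. That sub-component had a log2 fold of -1.92, just short of the limit of -2, and its mean lay above the level class in any case. The log2 folds of the cluster spanned 6.50 units. At the upper end, -0.63, was a sub-component at 31.7 RPKM at 25 °C and 20.1 RPKM at 35 °C. A partly reduced member at 131.9 RPKM at 25 °C and 7.73 RPKM at 35 °C stood beside a sub-component at 34217 RPKM at 25 °C and 21684 RPKM at 35 °C. The same cluster held one at 501.9 RPKM at 25 °C and 670.9 RPKM at 35 °C, which was higher in heat, and one at 363 RPKM at 25 °C and 146.8 RPKM at 35 °C. A member at 84.4 RPKM at 25 °C and 2.90 RPKM at 35 °C stood beside a sub-component at 1137 RPKM at 25 °C and 690.02 RPKM at 35 °C. The most abundant sub-component of each of these 3 clusters was thus lower at 35 °C than at 25 °C, though still at a high level.

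**Figure D4:**
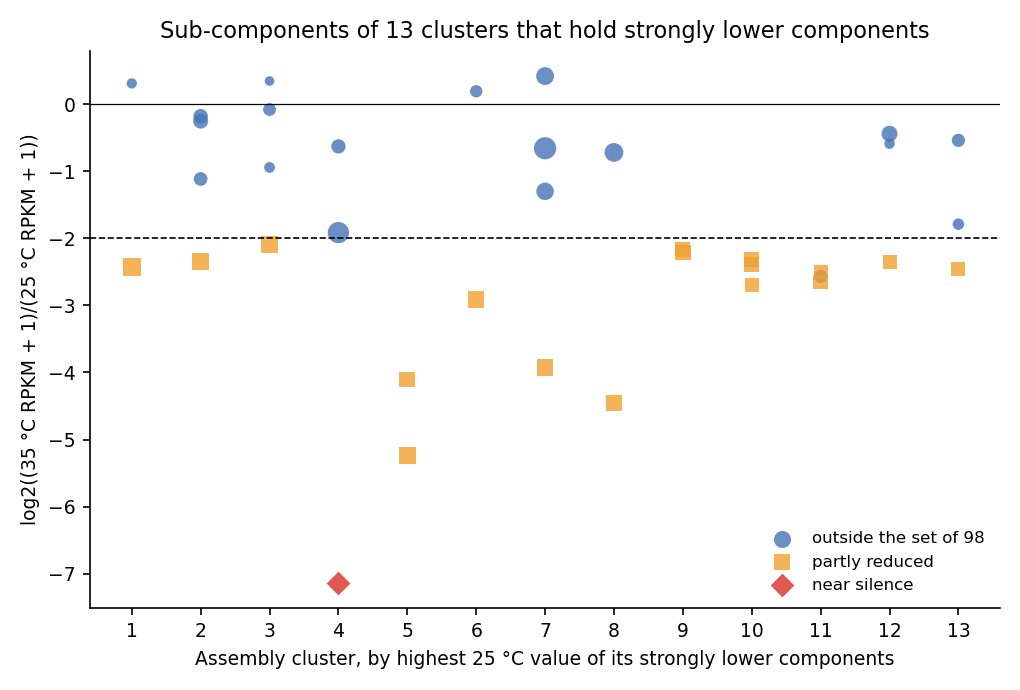
Log2 fold of 35 °C over 25 °C with a pseudocount of 1 RPKM (y) for every sub-component of the 13 clusters (x) that hold members and more than 1 sub-component. Members are squares (partly reduced) or a diamond (near silence), other sub-components are circles, point size grows with the log of the 25 °C RPKM, and the dashed line marks -2. Members of clusters 9 to 11 lie close together, while those of clusters 4, 7 and 8 lie far below their neighbours.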

How the data were processed

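The authors deposited 1 table with an RPKM value per component and library, a unit taken per the file headers, and no read numbers. Bowtie, RSEM and edgeR are named without role or version in the submitters' processing notes; neither the assembler nor any filter is given in the sources used here. Columns were matched to samples by title. The series' design text mentions nitrite once, while the labels of both samples give temperature alone.

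Members and lists were chosen with earlier results of these data known. Folds used a pseudocount of 1 RPKM. With 1 library per group no test was made. At most 2 identifiers are printed, those of the near-silent and the partly reduced member with the highest control RPKM; further members are given by rank of control RPKM. Summed RPKM was 767855 in heat and 750651 in control. Component lengths and absolute depth are unknown. Among 13543 low components, log2 ratios piled up at -0.059, the place of equal read numbers, which puts the reads of the heat library at about 1.04 times those of control.

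Python 3.11.15, numpy 2.4.6, pandas 2.3.3 and matplotlib 3.10.9 were used. The code of the rule was checked on simulated data with planted falls well past the limit and counting noise alone. That check held no variation between fish or libraries, so it cannot say how many members such variation would give. Identifiers made by an assembler do not occur in a RefSeq gene table, and 0 members matched that of assembly ASM1881202v1. Component sequences were not used here.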

Additional observations from a re-analysis of the deposited data

How the results depend on the processing

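The rule gave 98 members, 15 near silence and 83 partly reduced, with a median log2 fold of -2.67. A pseudocount of 5 RPKM left 64 members, 49 of them partly reduced, with a median of -2.51, and one of 0.1 RPKM gave a median of -2.74. A log2 fold limit of -1.5 gave 180 members, 165 partly reduced and a median of -2.08, and a limit of -3 gave 39, 24 and -3.93. A minimum mean of 5 RPKM gave 26 near-silent members and a median of -2.58, and one of 20 RPKM gave 60 members, 7 near silence and 53 partly reduced, with a median of -2.81. With the level filter on the control library alone, 25 were near silence and the median was -2.60. Near silence set below 0.5 RPKM left 9. The median was -2.69 with no upper limit, -2.64 under each of 3 rescalings of the heat library (by upper quartile, median ratio or a trimmed mean of log ratios) and -2.66 without components listed at 0. With the sub-components of each cluster summed, the rule gave 88 members, 14 near silence and 74 partly reduced. The counts with clusters summed, and all counts not given here, stayed within 1.5 times those of the main rule. The other alternative counts given above moved by more than 1.5 times, and the number of members ranged from 39 to 180. No paired analysis was possible because each temperature had 1 library, and for the same reason no replicate could be left out. Without read numbers the precision of values below 1 RPKM is unknown, and no value has an error across fish.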

Other observations

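Components that were well expressed at one temperature and near silence at the other were counted in both directions among the 35281 listed. Without the minimum mean, 25 components stood at 10 RPKM or more in control and below 1 RPKM in heat, and 48 stood at 10 RPKM or more in heat and below 1 RPKM in control. In the level class of the 98 members, the numbers were close, at 15 and 17 of 3486 components (0.43% and 0.488%). How many components reached 10 RPKM in each library was not counted, so 25 and 48 have no share at that level. This was not tested, since there was 1 library per temperature.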
